A study of Mus musculus with 39 samples.

Results

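Histone marks were examined at 6 genes of formative and primed pluripotency, Otx2, Fgf5, Pou3f1, Dnmt3a, Dnmt3b and Zic2, in mouse naive extra-embryonic endoderm (nEnd). Every listed peak within the gene body and 50 kb either side of it was taken (GRCm38, the assembly also called mm10), which gave 275 of the 432096 peaks of 36 lists and 6 of 21938 protein-coding genes. nEnd is a stem cell model of the hypoblast, the early endoderm of the blastocyst. Here it was differentiated from embryonic stem cells of an OCT4-mCherry reporter line. It was grown on mouse embryonic fibroblast feeders in a medium with Activin A, CHIR99021 and LIF. Untreated cells of this culture were sorted by FACS into 3 populations. These were Oct4+ (OCT4-mCherry single positive), DP (double positive for OCT4-mCherry and surface PDGFRA) and Pdgfra+ (PDGFRA single positive). In the study's account Oct4+ cells are pluripotent cells that arose by de-differentiation, and DP and Pdgfra+ cells are the endoderm of the culture. CUT&Tag, which cuts and tags DNA next to an antibody bound to a mark, was carried out for H3K4me1, H3K27ac, H3K27me3 and H3K9me3 with 3 replicates of each population. The study describes them as biological replicates, and the labels do not say whether they came from separate cultures or sorts, so p-values measure the spread between these libraries.

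Formative pluripotency is the state of the epiblast between the naive state of the blastocyst and the primed state after implantation. Otx2 and Pou3f1 (Oct6) encode transcription factors that rise as naive cells leave the ground state, and OTX2 directs OCT4 to new enhancers in that step. Fgf5 encodes a growth factor used as a marker of the post-implantation epiblast, Dnmt3a and Dnmt3b encode the de novo DNA methyltransferases that methylate the genome at this time, and Zic2 encodes a zinc finger factor active at primed enhancers. H3K4me1 marks enhancers whether or not they are in use, H3K27ac marks active enhancers and promoters, H3K27me3 is laid down by Polycomb at silent developmental genes, and H3K9me3 marks heterochromatin.

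The regions below include some of the distal sites described further on. For each gene, the H3K27ac region outside promoters with the largest excess of Oct4+ over Pdgfra+ libraries was taken, and 200 bp at its highest signal are given on the plus strand of GRCm38. Capitals mark a match to the OTX2 core TAATCC, here on the opposite strand, and the octamer ATGCAAAT, the GATA core AGATAA and the STAT site TTCCNGGAA were also searched on both strands without a match. These letters alone are common: TAATCC was held by 7% of 18091 such windows of non-promoter H3K27ac regions, ATGCAAAT by 1.09%, AGATAA by 9.97% and TTCCNGGAA by 0.746%. The regions of Fgf5 and Pou3f1 rested on 1 library each and are not shown.
Otx2 upstream, chr14:48705356-48705555 (intron of Otx2os1 and exon of Gm49153): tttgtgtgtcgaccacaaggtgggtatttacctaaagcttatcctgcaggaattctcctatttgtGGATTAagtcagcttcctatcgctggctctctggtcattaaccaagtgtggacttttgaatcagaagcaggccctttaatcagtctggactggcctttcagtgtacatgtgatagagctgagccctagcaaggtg
Dnmt3a intronic, chr12:3889921-3890120 (intron of Dnmt3a): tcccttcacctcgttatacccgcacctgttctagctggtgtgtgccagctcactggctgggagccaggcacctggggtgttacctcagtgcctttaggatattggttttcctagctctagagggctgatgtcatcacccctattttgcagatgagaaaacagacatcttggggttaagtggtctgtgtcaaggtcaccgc
Dnmt3b upstream, chr2:153611158-153611357 (intergenic): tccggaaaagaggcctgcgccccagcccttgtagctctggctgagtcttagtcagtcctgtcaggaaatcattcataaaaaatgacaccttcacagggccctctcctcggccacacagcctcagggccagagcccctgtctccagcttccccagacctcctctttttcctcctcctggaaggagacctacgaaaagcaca
Zic2 upstream, chr14:122432300-122432499 (intergenic): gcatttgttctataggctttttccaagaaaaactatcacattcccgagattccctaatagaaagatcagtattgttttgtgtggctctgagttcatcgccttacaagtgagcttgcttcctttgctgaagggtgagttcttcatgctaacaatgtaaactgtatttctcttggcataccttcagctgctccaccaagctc

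The starts of the genes that carried H3K27me3 in at least 2 libraries of a population follow, as the 250 bases upstream of a RefSeq start, on the strand of the gene. Capitals mark CpG dinucleotides, the bases that DNA methyltransferases act on and that are dense at Polycomb targets. Pou3f1 and Zic2 met the same rule. The Otx2 stretch held 6 CpG, the median of 32851 RefSeq promoters. Those of Fgf5 and Dnmt3a held 24 and 38, at the 88th and 98.1st percentile. The Dnmt3a stretch precedes a start 0.973 kb inside the gene, so it lies past the promoter as defined here. Of 2 further RefSeq starts of Dnmt3a, that at 1.15 kb held 40 CpG (98.7th percentile) and that at 85.7 kb held 15 (72.7th). The Otx2 stretch lies 6.17 kb inside the gene, at a downstream start, and 3 further RefSeq starts of Otx2 held 8, 14 and 9 CpG (57th, 70.6th and 59.7th percentile).
Otx2, chr14:48667645-48667894 (minus strand): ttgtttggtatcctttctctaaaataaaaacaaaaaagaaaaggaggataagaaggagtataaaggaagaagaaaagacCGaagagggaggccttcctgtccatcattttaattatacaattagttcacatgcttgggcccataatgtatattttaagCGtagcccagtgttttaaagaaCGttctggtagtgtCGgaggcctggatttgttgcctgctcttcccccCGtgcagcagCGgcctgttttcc
Fgf5, chr5:98253934-98254183 (plus strand): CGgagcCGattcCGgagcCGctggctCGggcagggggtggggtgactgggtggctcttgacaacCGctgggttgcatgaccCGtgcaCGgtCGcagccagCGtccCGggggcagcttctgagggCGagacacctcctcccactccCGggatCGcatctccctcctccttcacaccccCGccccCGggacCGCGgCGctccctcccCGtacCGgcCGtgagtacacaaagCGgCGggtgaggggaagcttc
Dnmt3a, chr12:3806730-3806979 (plus strand): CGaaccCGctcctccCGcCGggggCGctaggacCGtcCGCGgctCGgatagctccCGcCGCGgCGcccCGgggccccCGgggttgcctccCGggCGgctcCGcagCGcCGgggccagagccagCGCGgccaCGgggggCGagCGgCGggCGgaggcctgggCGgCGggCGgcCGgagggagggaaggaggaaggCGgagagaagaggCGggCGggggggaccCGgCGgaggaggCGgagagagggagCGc

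The measure used throughout was the percent of a window covered by listed peaks of a library. The lists differed widely in length, from 1074 to 65131 peaks, and sequencing depth is unknown, so a window without a listed peak may still carry the mark. The sort markers were checked first by their H3K27ac. The Pou5f1 window (the gene encoding OCT4) was covered for 6.86 to 22.8% in Oct4+ and 0 to 6.57% in Pdgfra+, and the Pdgfra window for 0 to 1.14% and 3.20 to 4.63%, so that each lay higher in its own population without overlap. No gene of the 21938 passed an adjusted p of 0.05 for any mark in the exact permutation test over the 3 populations. With 1680 assignments of 9 libraries the smallest p was 0.00357, and 1567 genes at that p would have been needed for any to pass, against 19 to 143 that had it. The unadjusted p was under 0.05 for 4.02% of genes for H3K4me1, 9.13% for H3K27ac, 4.24% for H3K27me3 and 10.3% for H3K9me3, and for none of the 6 genes and 4 marks here. Values by library are therefore given with the count of genes for which every library of one population lay above every library of another. Such a separation of 3 from 3 libraries has an exact two-sided permutation p of 0.10, the smallest possible.

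**Figure D1:**
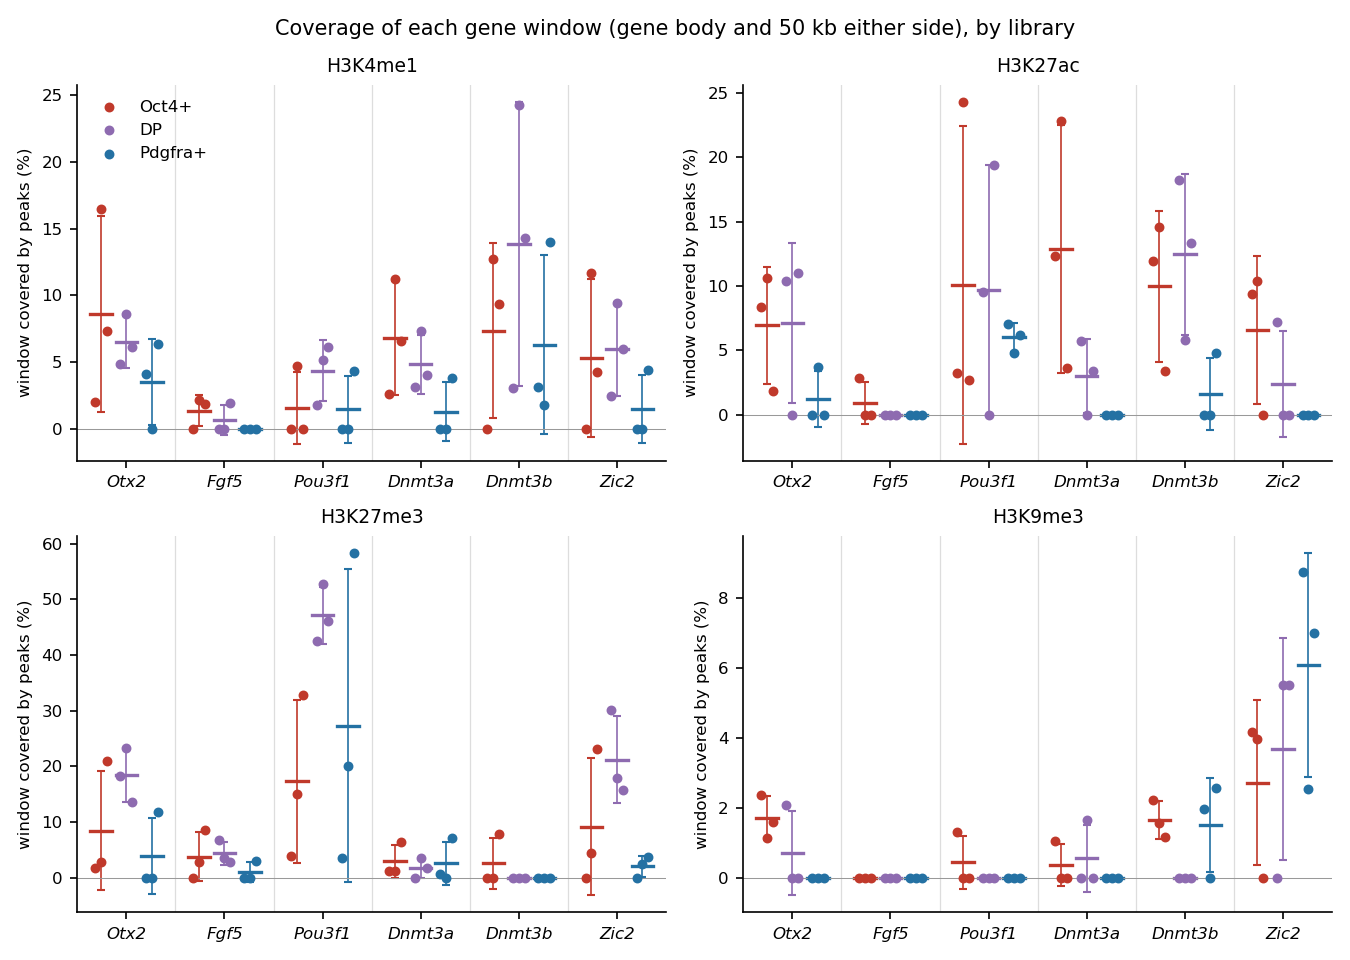
Percent of each window covered by listed peaks (y axis) for the 6 genes (x axis) and 4 marks. Points are libraries, horizontal lines are means of 3 libraries and bars are 1 SD; Pou3f1 was the most covered for H3K27me3, and H3K27ac at Dnmt3a was absent from all 3 Pdgfra+ libraries.

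H3K27ac at Dnmt3a was found in all Oct4+ libraries and in no Pdgfra+ library. The window, chr12:3756007-3964443, was covered for 12.3, 22.8 and 3.60% in Oct4+ replicates 1 to 3, for 5.70, 0 and 3.4% in DP, and for 0% in each Pdgfra+ library. Oct4+ lay above Pdgfra+ without overlap, by a mean of 12.9 points, which held for 18.1% of all genes (exact permutation p over 3 populations = 0.05, adjusted p = 0.504). Of the 6 genes, Dnmt3a was the single one separated in this direction. For H3K27ac none of the 6 was separated as Oct4+ over DP (8.61% of all genes), DP over Oct4+ (0.264%), Pdgfra+ over Oct4+ (0.333%) or Pdgfra+ over DP (0.164%). Without Oct4+ replicate 2 the mean difference at Dnmt3a was 7.95 points, and leaving out a library cannot bring overlap. With equal numbers of peaks per list the mean difference was 3.08 points, without overlap. When 1 cut on total signal was applied to every H3K27ac list, it was 1.69 points and the populations overlapped. In sorted populations, fewer cells with a mark and less of it per cell cannot be told apart.

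The Dnmt3a regions listed in all 3 Oct4+ libraries lay inside the gene, away from its annotated start. A region of 10.6 kb from 80.2 to 90.8 kb past the start had H3K27ac in 3 of 3 Oct4+, 1 of 3 DP and 0 of 3 Pdgfra+ libraries. It spans the RefSeq start 85.7 kb into the gene, from which the shorter isoform DNMT3A2, the form found in pluripotent cells, is transcribed. The intronic sequence printed above lies in this region, and peaks of 2 Oct4+ libraries and 1 DP library covered it. A neighbouring region from 62.8 to 69.9 kb was in 3 of 3 Oct4+ libraries and no other. Among all H3K27ac regions in 3 of 3 Oct4+ libraries, 49.6% were in no Pdgfra+ library and 36.4% in no DP or Pdgfra+ library.

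H3K4me1 at the internal start of Dnmt3a was more widely shared than H3K27ac. Its region from 77.3 to 89.8 kb was in 3 of 3 Oct4+, 3 of 3 DP and 1 of 3 Pdgfra+ libraries, and another from 70.1 to 73.5 kb was in 3 of 3 Oct4+ libraries alone. Near the annotated start, an H3K27ac region that ended at 3.22 kb was in 2 Oct4+ libraries, of which replicate 2 reached the promoter. An H3K27me3 region of 14.6 kb there was in 3, 2 and 2 libraries of Oct4+, DP and Pdgfra+, and reached the promoter in Oct4+ replicates 1 and 3. Within 2 kb either side of the start, H3K27ac was in Oct4+ replicates 2 and 3 and H3K27me3 in replicates 1, 2 and 3. Each library holds 1 mark, and the labels do not say whether equal replicate numbers link libraries of different marks. Whether the marks occur together cannot be read here.

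**Figure D2:**
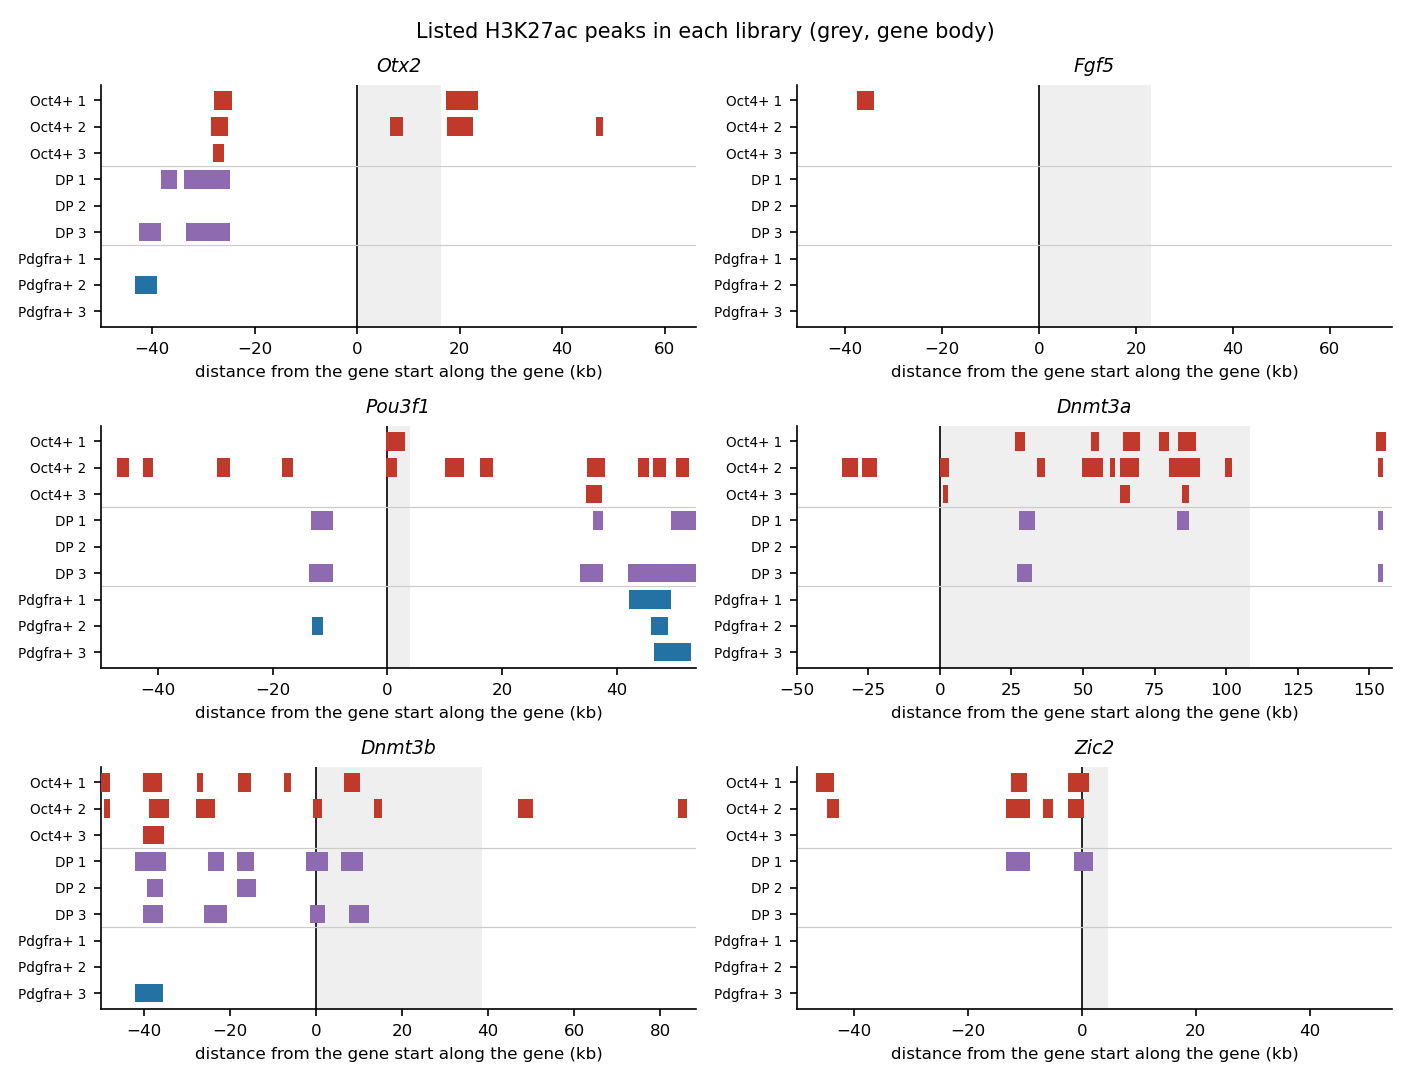
Listed H3K27ac peaks along each window (x axis, kb from the gene start along the gene) in the 9 libraries (rows, by population and replicate). Bars are peaks and the gene body is shaded; upstream peaks of Otx2 and Dnmt3b and internal peaks of Dnmt3a recur across Oct4+ libraries, and DP replicate 2 has peaks at Dnmt3b alone.

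Of the 6 genes, Dnmt3b had the highest mean H3K27ac coverage in DP. Its window, chr2:153599450-153737730, was covered for 11.9, 14.6 and 3.42% in Oct4+, 18.2, 5.84 and 13.3% in DP, and 0, 0 and 4.81% in Pdgfra+. Every DP library lay above every Pdgfra+ library, by a mean of 10.8 points, as for 1.37% of all genes (exact permutation p over 3 populations = 0.143, adjusted p = 0.530). The gap between the lowest DP and the highest Pdgfra+ library was narrow, and with equal numbers of peaks per list the mean difference was 2.08 points and the populations overlapped. They also overlapped with the top 50% of peaks (4.36 points), under the common cut on signal (0.134 points), by share of listed signal, and without peaks at promoters of other genes (8.76 points). Oct4+ and Pdgfra+ overlapped, with means ± SD of 9.95 ± 5.81 and 1.6 ± 2.78% (n = 3).

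One distal region was shared by Oct4+ and DP. From -42.1 to -34.1 kb, in the intergenic sequence printed above, H3K27ac was listed in 3 of 3 Oct4+, 3 of 3 DP and 1 of 3 Pdgfra+ libraries, and H3K4me1 overlapped it in 2, 3 and 2 libraries. DP replicate 2, which held 3079 H3K27ac peaks, the fewest of that mark, still listed it, and the highest signal came from Pdgfra+ replicate 3. A second region from -28.0 to -20.7 kb, inside the neighbouring gene Commd7, had H3K27ac in 2, 2 and 0 libraries and H3K4me1 in 2, 3 and 3, so that all 3 Pdgfra+ libraries listed H3K4me1 there and none listed H3K27ac. At the Dnmt3b start itself H3K27ac was in 1 Oct4+ and 2 DP libraries. H3K27me3 covered 7.89% of the window in Oct4+ replicate 3 and was not listed in the other 8 libraries.

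Otx2 had H3K27ac upstream and beyond its end, and H3K27me3 over its start. The window, chr14:48607677-48723819, was covered by H3K27ac for 8.38, 10.6 and 1.82% in Oct4+, 10.4, 0 and 11% in DP and 0, 3.71 and 0% in Pdgfra+. The populations overlapped, with an exact permutation p of 0.282 and an adjusted p of 0.576. No library had an H3K27ac peak at the annotated start. The region in the most libraries, from -33.8 to -24.5 kb within the long non-coding gene Otx2os1, was in 3 of 3 Oct4+, 2 of 3 DP and 0 of 3 Pdgfra+ libraries. Another, from 17.4 to 23.6 kb past the start, was in Oct4+ replicates 1 and 2 alone. Its total signal there was 22879 and 19598, against 13324 and 14140 for the upstream peak. H3K4me1 overlapped it in 2, 0 and 0 libraries of Oct4+, DP and Pdgfra+, and H3K27me3 in 0, 2 and 1.

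Within the upstream region the H3K27ac peaks of Oct4+ and DP shared the near part, and those of DP reached further out. This was noticed after the values were seen. Listed H3K27ac peaks were wider in DP at large, with medians of 3464 to 3814 bp against 2394 to 2698 bp in Oct4+. The part of peak width in this was not tested. The H3K27ac peaks of the 3 Oct4+ libraries reached out to -28.0, -28.4 and -28.2 kb, while those of DP replicates 1 and 3 reached -33.8 and -33.4 kb. H3K4me1 divided in the same way into a near peak, listed between -29.9 and -23.1 kb in 3 Oct4+, 3 DP and 2 Pdgfra+ libraries, and a far peak between -33.7 and -29.1 kb in 3 DP and 2 Pdgfra+ libraries and no Oct4+ library. The H3K4me1 lists held 4127, 16057 and 7443 peaks in Oct4+, 4371, 11874 and 11334 in DP and 1723, 1074 and 10620 in Pdgfra+, and the part of list length in the missing far peak was not tested. The upstream sequence printed above, with its single OTX2 core GGATTA, lies in the far part, at -31.6 kb, where 2 DP libraries listed H3K27ac. H3K27me3 from -41.9 to -30.3 kb was listed in Oct4+ replicate 3 and in no other library.

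**Figure D3:**
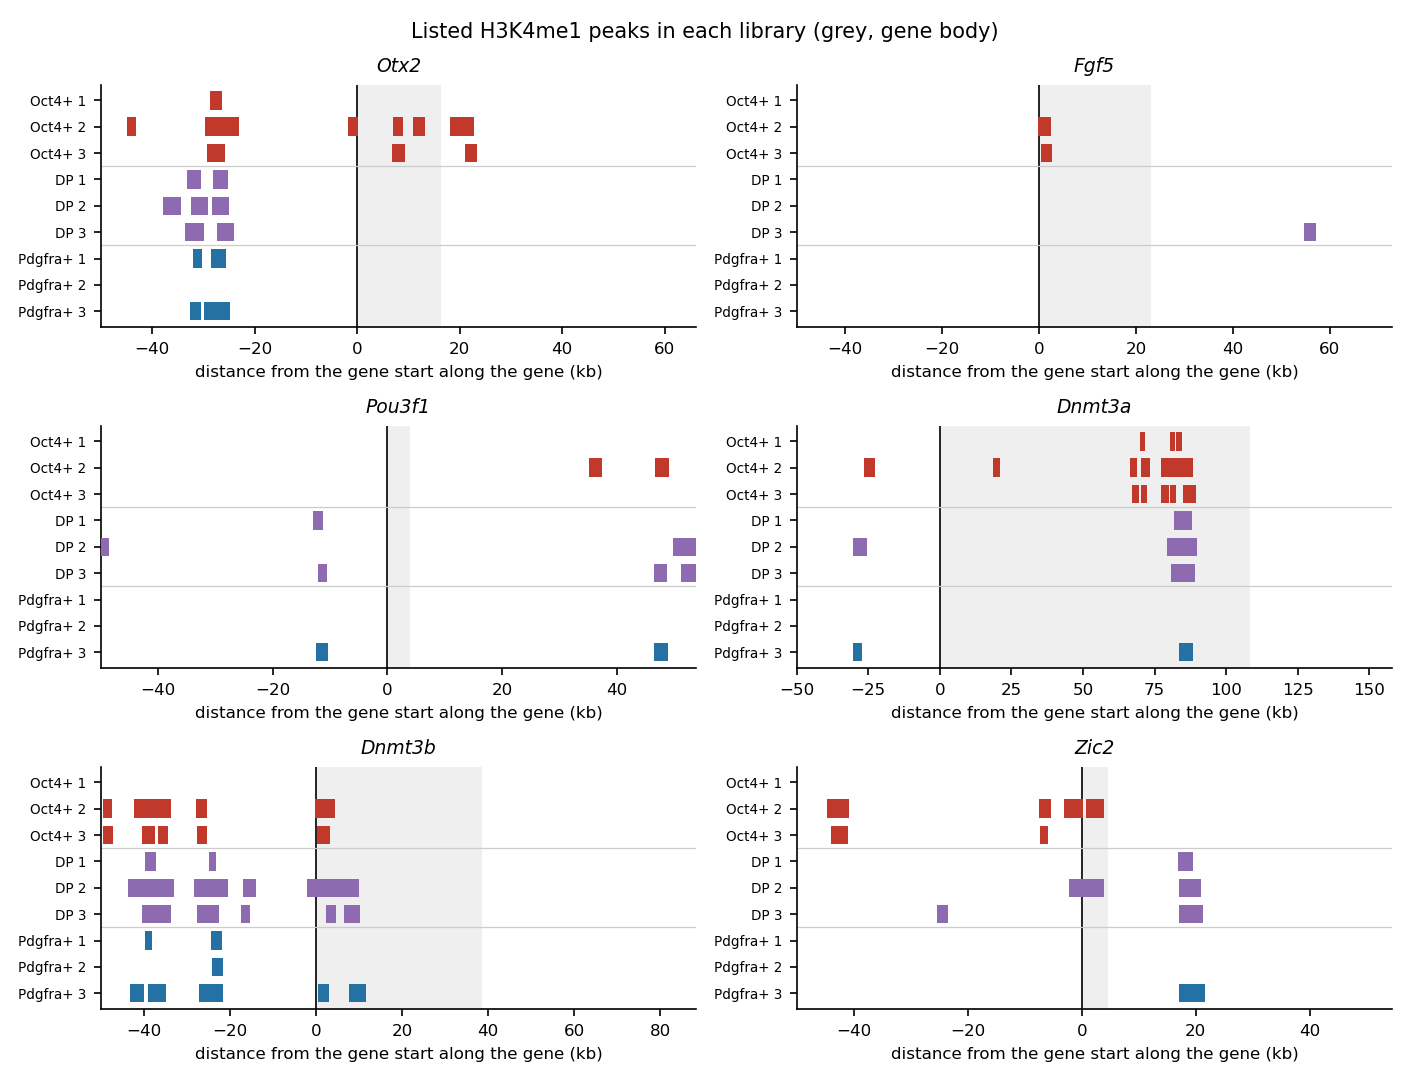
Listed H3K4me1 peaks along each window (x axis, kb from the gene start along the gene) in the 9 libraries (rows). Bars are peaks and the gene body is shaded; upstream of Otx2 the far peak near -31.6 kb is present in 3 DP rows and 2 Pdgfra+ rows and missing from the Oct4+ rows, and Fgf5 has few peaks in any row.

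H3K27me3 at Otx2 had its highest mean coverage in DP. It covered 1.70, 2.91 and 20.9% of the window in Oct4+, 18.2, 23.3 and 13.7% in DP and 0, 0 and 11.9% in Pdgfra+. DP lay above Pdgfra+ without overlap, by a mean of 14.4 points, as it did for 8.43% of all genes, and Zic2 was the other of the 6 genes to do so. None was separated as Oct4+ over DP (0.356%), Oct4+ over Pdgfra+ (1.78%), Pdgfra+ over Oct4+ (0.547%) or Pdgfra+ over DP (0.0228%). A region of 14.2 kb over the start was in 3, 3 and 1 libraries of Oct4+, DP and Pdgfra+, and one from 27.3 to 35.2 kb past the start, beyond the gene, was in all 3 DP libraries and no other. Of H3K27me3 regions in 3 of 3 DP libraries, 6.45% were in no Oct4+ or Pdgfra+ library.

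Pou3f1 carried the most H3K27me3 of the 6 genes. The window, chr4:124606807-124710655, was covered for 3.94, 15.1 and 32.9% in Oct4+, 42.6, 52.7 and 46.1% in DP and 3.58, 20 and 58.3% in Pdgfra+. Ranked within each library, it lay between the 96.2nd and 99.6th percentile of all genes in all 9 libraries. DP lay above Oct4+ without overlap, by a mean of 29.8 points, as for 13.4% of all genes (exact permutation p over 3 populations = 0.229, adjusted p = 1). DP and Pdgfra+ overlapped.

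All 9 libraries listed H3K27me3 at the Pou3f1 promoter, and the peaks merged into 1 region of 69.1 kb. Only 3.75% of the H3K27me3 regions were in all 9 libraries. The peak over the start was 4094 bp wide in Oct4+ replicate 1 and 3716 bp in Pdgfra+ replicate 1, against 44242 bp in DP replicate 1 and 54284 bp in Pdgfra+ replicate 3. The total length of these lists ran in parallel, at 5.51, 2.80, 52.7 and 66.8 Mb for those 4 libraries, and its part in the widths was not tested. With equal numbers of peaks per list the DP excess over Oct4+ was 28.2 points without overlap, and the promoter peak was still listed in 9 of 9 libraries, which held for no other of the 6 genes.

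**Figure D4:**
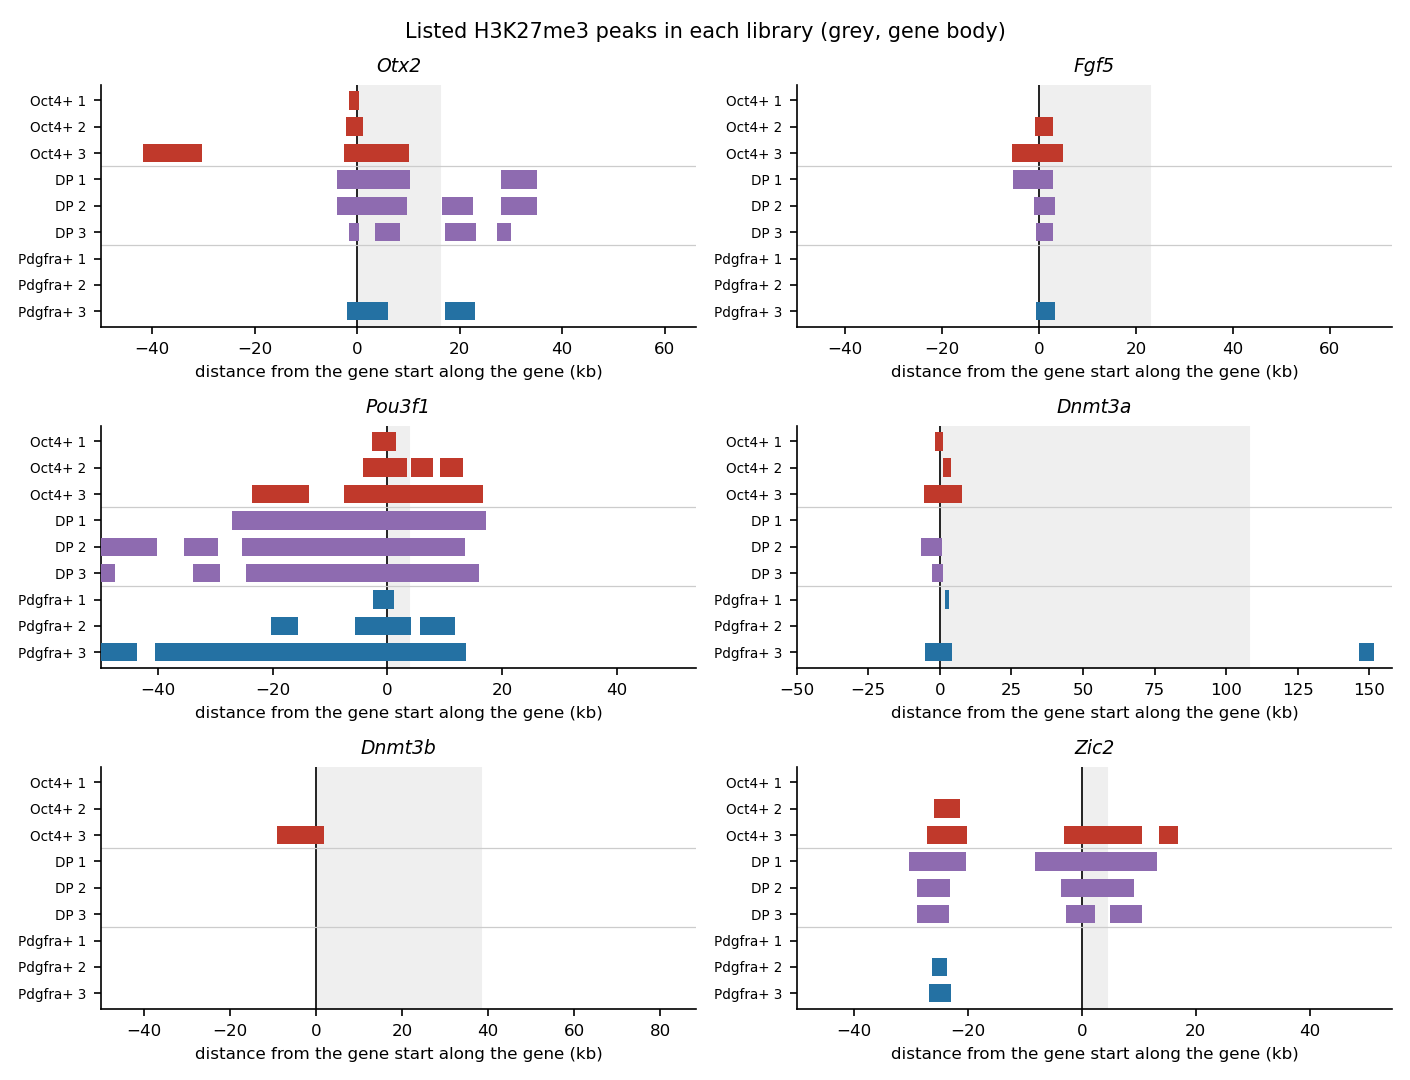
Listed H3K27me3 peaks along each window (x axis, kb from the gene start along the gene) in the 9 libraries (rows). Bars are peaks and the gene body is shaded; every row has a peak over the start of Pou3f1, while the start of Zic2 is covered in all DP rows, 1 Oct4+ row and no Pdgfra+ row.

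H3K27ac at the Pou3f1 promoter was listed in Oct4+ replicates 1 and 2 alone, inside the H3K27me3 region. A separate H3K27ac region from -13.7 to -9.45 kb was in 0, 2 and 1 libraries of Oct4+, DP and Pdgfra+, and H3K4me1 overlapped it in the same numbers. Coverage of the whole window was 3.22, 24.3 and 2.71% in Oct4+, 9.57, 0 and 19.4% in DP and 7.04, 4.81 and 6.17% in Pdgfra+. The exact permutation p was 0.893 and the adjusted p 1. A region from 42.0 to 54.5 kb that overlaps the promoter of Fhl3 was listed in 1, 2 and 3 libraries.

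Zic2 had H3K27me3 over its start in DP and H3K27ac there in Oct4+. H3K27me3 covered 0, 4.39 and 23.2% of its window, chr14:122425435-122529852, in Oct4+, 30.1, 17.9 and 15.7% in DP and 0, 2.57 and 3.69% in Pdgfra+. DP exceeded Pdgfra+ without overlap by a mean of 19.2 points (exact permutation p over 3 populations = 0.0893, adjusted p = 1). The region over the start, 21.3 kb wide, was in 1, 3 and 0 libraries. With equal numbers of peaks the difference at Zic2 was 6.81 points and that at Otx2 3.96 points, and under the common cut on signal 14.2 and 12.1 points, with overlap in each case. The Pdgfra+ lists covered 2.80, 11.4 and 66.8 Mb in all and those of DP 52.7, 73.1 and 40.1 Mb.

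H3K27ac at Zic2 was listed in 3 of 9 libraries. H3K27ac covered 9.39, 10.4 and 0% of the window in Oct4+, 7.18, 0 and 0% in DP and 0% in each Pdgfra+ library. The exact permutation p was 0.250 and the adjusted p 0.530. The region over the start was in 2, 1 and 0 libraries, as was another from -13.3 to -9.12 kb at the promoter of Zic5, a paralogue read from the opposite strand. The distal sequence printed above lies in a region listed in 2 Oct4+ libraries, and only 1 of them had a peak over those 200 bp. H3K4me1 from 16.9 to 21.6 kb past the start was in 0, 3 and 1 libraries. H3K4me1 regions from -44.7 to -40.9 kb and from -7.43 to -5.47 kb were each in 2 Oct4+ libraries and no other. Mean H3K4me1 coverage of the window was 5.33, 5.96 and 1.47% in Oct4+, DP and Pdgfra+. The medians over all genes were 0.731, 1.02 and 0%.

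Fgf5 had the lowest mean H3K27ac coverage of the 6 genes in Oct4+ and no H3K9me3. Its window, chr5:98204184-98327030, holds no other annotated gene. H3K27ac covered 2.83% of it in Oct4+ replicate 1 and was listed in no other library. The start had H3K27me3 in 2, 3 and 1 libraries of Oct4+, DP and Pdgfra+, with 0, 2.92 and 8.54%, 6.73, 3.54 and 2.91%, and 0, 0 and 3.08% of the window covered. H3K4me1 within 2.58 kb of the start was in Oct4+ replicates 2 and 3 alone, and reached the promoter in replicate 2. None of the populations was separated for any mark.

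**Figure D5:**
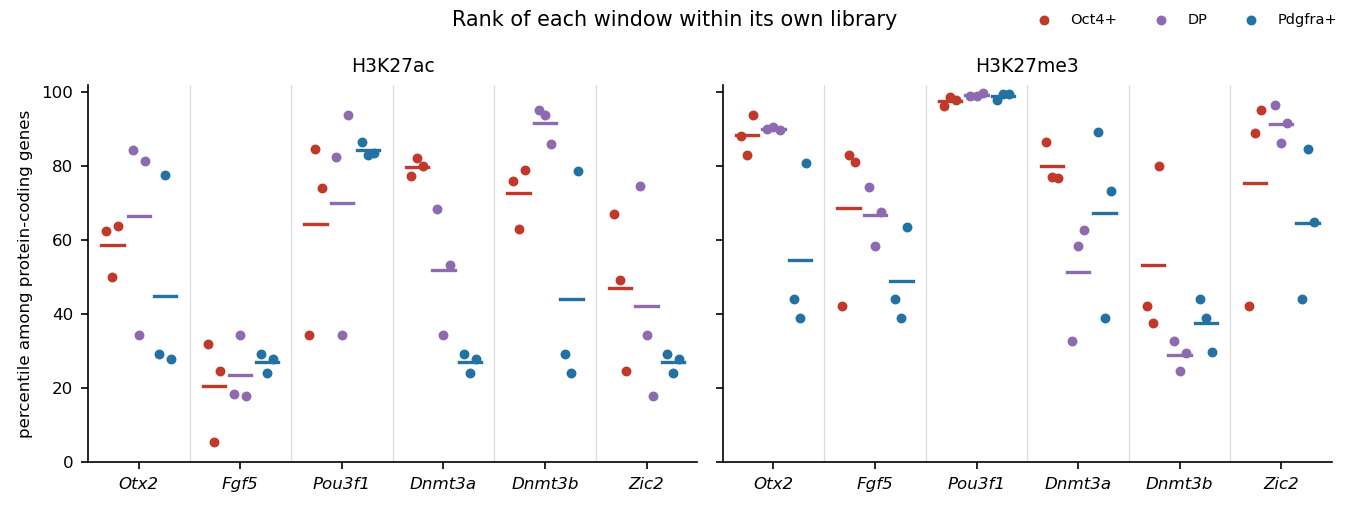
Percentile of each window among 21938 protein-coding genes within its own library (y axis) for H3K27ac and H3K27me3, by gene (x axis). Points are libraries and lines are means of 3; windows without a peak share the middle rank of all such windows in their library, so such points sit at different heights, and for H3K27me3 all 9 Pou3f1 points lie between 96.2 and 99.6.

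Promoters were read from 1 kb upstream to 100 bp downstream of the annotated start. H3K27me3 was listed in at least 2 Oct4+ libraries at Otx2, Fgf5, Pou3f1 and Dnmt3a, in at least 2 DP libraries at these and Zic2, and in at least 2 Pdgfra+ libraries at Pou3f1. Over all 21938 promoters the shares were 9.12, 14.6 and 5.37%. H3K27ac was listed in at least 2 Oct4+ libraries at Pou3f1 and Zic2 (31.9% of all promoters), in at least 2 DP libraries at Dnmt3b (30.3%) and in no Pdgfra+ library at any of the 6 (18.4% in at least 2). When any annotated transcript start was allowed, a choice made after the data were seen, Dnmt3a had H3K27ac in 3, 1 and 0 libraries.

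H3K9me3 was listed at the promoter of none of the 6 genes. At Dnmt3a a region from 1.61 to 3.77 kb past the start was in Oct4+ replicate 1 alone. Otx2 had 2.37, 1.1 and 1.6% of its window covered in Oct4+, 2.08, 0 and 0% in DP and 0% in each Pdgfra+ library. Oct4+ lay above Pdgfra+ without overlap, as for 11.3% of genes (exact permutation p over 3 populations = 0.107, adjusted p = 0.647), and the Oct4+ peaks formed 1 intergenic region from 46.5 to 50 kb. Dnmt3b had 2.22, 1.56 and 1.15% in Oct4+, 0% in each DP library and 1.97, 0 and 2.57% in Pdgfra+, and Oct4+ lay above DP, as for 8.76% of genes. None was separated as DP over Oct4+ (7.79%), Pdgfra+ over Oct4+ (5.22%), DP over Pdgfra+ (3.04%) or Pdgfra+ over DP (0.989%). The Oct4+ region of Dnmt3b, from -49.6 to -47.2 kb, was likewise in 3 of 3 Oct4+ libraries and no other. H3K4me1 and H3K27ac regions overlapped it, each in 2 Oct4+ libraries and no other. At Otx2 an H3K27ac peak of Oct4+ replicate 2 overlapped the H3K9me3 region. Of H3K9me3 regions in 3 of 3 Oct4+ libraries, 23.4% were in no DP or Pdgfra+ library. Neither separation held with a window of 20 kb either side, which leaves both regions out, nor with equal numbers of peaks, the top 50% or the common cut.

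At Zic2 H3K9me3 was listed in 7 libraries. It covered 4.17, 3.98 and 0% of the window in Oct4+, 0, 5.52 and 5.51% in DP and 8.74, 2.53 and 6.99% in Pdgfra+, and the populations overlapped. The window ranked at the 89.3rd, 89.3rd and 93.9th percentile of the Pdgfra+ libraries. The region from 17.4 to 23.4 kb past the start was in 0, 1 and 3 libraries, and overlapped the H3K4me1 region of DP. The other, from 49.7 to 54.9 kb, was in 2 libraries of each population.

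H3K4me1 coverage overlapped between populations at all 6 genes. The shares of all genes separated were 3.05% for Oct4+ over DP, 4.49% for DP over Oct4+, 7.97% for Oct4+ over Pdgfra+, 0.456% for Pdgfra+ over Oct4+, 4.30% for DP over Pdgfra+ and 0.0365% for Pdgfra+ over DP. Otx2 had 1.97, 16.5 and 7.34% in Oct4+, 4.81, 8.60 and 6.10% in DP and 4.11, 0 and 6.34% in Pdgfra+. Dnmt3b had 0, 12.7 and 9.31%, then 3.02, 24.3 and 14.3%, then 3.13, 1.79 and 14%. In Pdgfra+ the Dnmt3b window ranked at the 98.1st, 97.2nd and 96.6th percentile of its libraries, above the other members in 2 of the 3. Pdgfra+ replicates 1 and 2 listed no H3K4me1 at Fgf5, Pou3f1, Dnmt3a or Zic2, with 1723 and 1074 peaks in all.

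As a group, the 6 windows had a median H3K27ac coverage of 8.44, 5.08 and 0.619% in Oct4+, DP and Pdgfra+, against 5.97, 2.04 and 0.701% over all genes. The medians for H3K27me3 were 6.16, 11.4 and 2.35%, against 0, 0.583 and 0%. For H3K4me1 they were 6.06, 5.38 and 1.46%, against 0.731, 1.02 and 0%. For H3K9me3 they were 1.04, 0.277 and 0%, against 1.01, 0.923 and 0.804%. These are levels of coverage, described without a test.

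Of 16 other formative and primed genes, Zic5, Foxd3, Tcf15, Zfp281 and Etv5 had H3K27ac in Oct4+ above Pdgfra+ without overlap (5 of 16, against 18.1% of all genes). For H3K27me3, Zic5 and Foxd3 lay higher in DP than in Pdgfra+, and Foxd3, Grhl2 and Lin28b higher in DP than in Oct4+. These are 2 and 3 of 16, against 8.43% and 13.4% of all genes. The Zic5 start lies at -9.76 kb from that of Zic2, so their windows overlap. Of 10 naive genes, 6 were separated in the Oct4+ over Pdgfra+ direction for H3K27ac (18.1% of all genes) and 5 in the Oct4+ over DP direction (8.61%). The latter held for none of the 6 members and for 4 of the 16 other formative and primed genes (Foxd3, Tcf15, Zfp281 and Etv5).

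Markers of other cells were read in the same way. For H3K27ac, 3 of 10 extra-embryonic endoderm genes (Sox17, Pdgfra and Foxa2) and 3 of 8 trophectoderm genes (Cdx2, Krt8 and Krt18) lay higher in Pdgfra+ than in Oct4+, as did 0.333% of all genes. Pdgfra encodes the surface protein used in the sort. Krt8 and Krt18 had much the same coverage (Oct4+ means of 6.88 and 9.68%, Pdgfra+ means of 19.1 and 20.8%), so they may not be separate observations. The endoderm gene Hnf4a was separated in the opposite direction, Oct4+ over Pdgfra+. Of 8 feeder fibroblast genes, Col3a1 and Twist2 lay higher in Oct4+ than in Pdgfra+, the direction of Dnmt3a and of 18.1% of all genes. The median over these 8 ran from 0 to 3.25% across Oct4+ libraries and was 0% in every DP and Pdgfra+ library, with Prrx1 listed at 0 in all 9. The part of feeder cells in the Dnmt3a difference was not tested.

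Over 36 libraries, percentiles of the 6 windows within their libraries ran together weakly, as a description of points that share library depth and mark. The highest Pearson r between members was 0.555 for Otx2 and Dnmt3a, and the lowest -0.102 for Pou3f1 and Dnmt3b. The genes most like each member were Lrfn3 for Otx2 (r = 0.768), Lrrc43 for Fgf5 (0.872), Opn1sw for Pou3f1 (0.924), Zc3h3 for Dnmt3a (0.849), Prkar2a for Dnmt3b (0.780) and St8sia1 for Zic2 (0.720). No other member was among the 3 most alike for any of the 6.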

How the data were processed

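The deposited files are SEACR peak lists in stringent mode, 1 per library against IgG, which the authors made from BEDtools coverage of paired-end fragments. The submitters' processing notes name bcl2fastq 2.19.1, Bowtie2, SAMtools 1.12, deepTools, SEACR and bedtools 2.26.0, and mm10. Each deposited line holds an interval with total and maximum signal in whole, unscaled units of fragment coverage. Whether SEACR normalization was on is not given in the sources used here. Sequencing depth is unknown, and 3 IgG samples were not used here.

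Windows were the GENCODE vM21 gene body plus 50 kb either side. Coverage was computed in Python 3.11.15 with NumPy 2.4.6, SciPy 1.17.1 and pandas 2.3.3, checked against bedtools 2.31.1 and tested on simulated data, and plotted with Matplotlib 3.10.9. For each of 21938 genes the one-way F over the 3 populations was tested by exact permutation (1680 assignments), with Benjamini-Hochberg adjustment within a mark. Regions were peaks merged over the 9 libraries of a mark and named where at least 2 libraries of a population had one. Genes of like pattern were the 3 with the highest Pearson r over 36 libraries. The members and gene lists were chosen with earlier results of these data known. Sequences were read from GRCm38.p6 and from RefSeq promoters, which matched 4 of the 6 genes. Alternatives covered window size, peak number, signal thresholds, overlap, ranks, signal share, neighbouring promoters, a replicate block and leaving out each library.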

Additional observations from a re-analysis of the deposited data

How the results depend on the processing

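No gene passed the adjusted threshold under any of 18 alternatives per mark, which the design nearly fixes, and the adjusted p of the 6 genes ran from 0.0794 (Dnmt3a, H3K27ac) to 1. The sign of the Oct4+ minus Pdgfra+ mean turned in 35 of 432 gene, mark and alternative combinations, most often for H3K4me1 at Pou3f1 (8 of 18) and Dnmt3b (7 of 18) and H3K27ac at Pou3f1 (5 of 18). The number of gene and population pairs without overlap was 0 for H3K4me1, 2 for H3K27ac, 3 for H3K27me3 and 2 for H3K9me3. For H3K4me1 it became 2 with 20 kb, 1 with equal peak numbers, 1 at a common threshold, 3 by percentile and 2 by share of signal. For H3K27ac it became 0 at a common threshold, 5 by percentile and 1 without peaks at other promoters. For H3K27me3 it became 1 with equal peak numbers, 1 at a common threshold, 6 by percentile and 7 by share of signal. For H3K9me3 it became 1 with 20 kb, 0 with the top 50% of peaks, 0 at a common threshold and 4 by percentile, while with equal peak numbers the 2 pairs were other ones. Without 1 library each the counts ran from 0 to 6, 2 to 7, 3 to 7 and 2 to 5 in the same order. The counts that moved most were 6 without DP replicate 1, 5 without Pdgfra+ replicate 3 and 3 without Oct4+ replicate 1 (H3K4me1), 7 without Oct4+ replicate 3 and 5 without DP replicate 2 (H3K27ac), 7 without Pdgfra+ replicate 3 and 5 without Oct4+ replicate 3 (H3K27me3), and 5 without Pdgfra+ replicate 2 and 4 without DP replicate 1 (H3K9me3). By construction, 2 libraries separate more easily than 3. The cause of the other shifts was not tested. Of 119 checks of the 7 separated differences, 101 stayed separate and 18 overlapped, and none turned in direction. Of these 101, 63 left out 1 library, which cannot undo a separation, so their outcome was fixed in advance. All 18 overlaps came from the other checks. The Pou3f1 H3K27me3 difference stayed separate in each setting run. Same-numbered libraries of different populations correlated above 0.1 in 4, 1, 3 and 4 of 9 pairs by mark. The 3 pairs for H3K27me3 were the Oct4+ and Pdgfra+ pairs (r = 0.657, 0.356 and 0.616 on coverage, 0.126, 0.0191 and 0.0962 on percentiles). With 3 libraries per group and lists of different length, these values cannot settle whether replicate numbers pair the samples. The replicate block gave 0 calls for each mark. Unknown depth limits every absence stated here to the listed peaks.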
